A study of Mus musculus with 8 samples.

Results

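Trp53 and 9 genes that the p53 protein switches on were followed in RNA sequencing of mouse pancreatic tumour isografts, that is, tumours grown after transplantation into mice of the donor's inbred background. All 10 genes were chosen by name and all 10 were found among the 19129 genes of the table. Each library came from 1 of 8 mice: 4 are labelled MEKi and received trametinib, which blocks the kinases MEK1 and MEK2, over 7 days, and 4 are labelled control. The labels give the tissue only as pancreas tumour. The sources used here do not give the strain, the age, the tumour or cell line that was transplanted, its Trp53 alleles or what the control mice received. Reads over a gene do not tell an intact from a mutant Trp53 allele, and tumour cells and host cells both contribute to them.

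p53 is a transcription factor that is held at low levels in unstressed cells because the ubiquitin ligase Mdm2 marks it for degradation. DNA damage and oncogene activity stabilise it, and it then switches on genes for cell cycle arrest, cell death, metabolism and DNA repair, Mdm2 among them, which closes a negative feedback loop. p53 activity is set mainly by the amount and modification of the protein, so the mRNA of its targets is commonly read as its output, although most targets also answer to other factors.

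p53 recognises a 10-base unit, here called the p53 decamer, and its full element is a pair of such decamers. The stretches below are shown because p53 finds its target genes through this element. They are RefSeq sequence of GRCm38.p6, taken from windows of 250 bases before to 50 bases after each annotated start, printed in the direction of transcription. Capitals mark the decamer, or the pair where both decamers lay no more than 1 base apart with at most 3 mismatches in 20 letters, a tolerance set after the first matches had been seen.
Trp53 (chr11:69580264-69580323, plus strand): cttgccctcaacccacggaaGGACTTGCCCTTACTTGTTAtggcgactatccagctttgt
Mdm2 (chr10:117710915-117710964, minus strand): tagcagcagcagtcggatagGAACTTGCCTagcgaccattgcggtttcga
Ccng1 (chr11:40755442-40755501, minus strand): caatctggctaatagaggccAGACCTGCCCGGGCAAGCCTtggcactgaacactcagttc
Bax (chr7:45467070-45467130, minus strand): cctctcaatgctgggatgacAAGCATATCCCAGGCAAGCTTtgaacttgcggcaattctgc
Bbc3 (chr7:16309466-16309525, plus strand): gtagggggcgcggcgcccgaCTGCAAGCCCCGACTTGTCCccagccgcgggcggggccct

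No exon of the annotation overlapped these stretches. The pair in Ccng1 had 1 mismatch and no spacer, and lay 195 to 176 bases before the start. The pair in Bax had 1 mismatch and a spacer of 1 base, 212 to 192 bases before the start. Trp53 and Bbc3 each held a pair with 3 mismatches, while Mdm2 held a single exact decamer 186 bases before its start. Bbc3 has more than 1 annotated start, and the windows at its other starts held no pair and no exact decamer. An exact decamer was present in 4 of the 7 genes that have an entry in the promoter table, and in 7 of the 26 other p53 targets with an entry (26.92%). It was present in 1106 of 12799 tested genes with an entry (8.64%). A pair within the tolerance was found in 4 of the 7 genes and in 8 of the 26 other p53 targets (30.77%), against 12.65% of tested genes. The pairs of Trp53 and Bbc3 lie at the limit of a tolerance set after matches had been seen, so this share is no test. Sesn2 and Phlda3 held neither in this window, and Pmaip1, Trp53inp1 and Zmat3 have no entry in it. A match is a description of letters and not evidence of binding.

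Expression is given on the deposited variance-stabilised scale, which is log2-like. Differences are therefore near log2 fold changes for well-read genes and understate the change of genes with few reads. The tested genes held between 20090101 and 38569550 reads per library, with the highest total in MEKi replicate 4. The drug label was checked through Dusp6, a phosphatase gene that ERK switches on, and values under the labels overlapped. Dusp6 had 8.88, 12.12, 12.20 and 11.01 in MEKi replicates 1 to 4, against 12.19, 12.14, 9.31 and 9.24 in control replicates 1 to 4. The Dusp6 difference was 0.33 (SE 0.90, 95% interval -1.70 to 2.36), and lower ERK output under the MEKi label was not seen in this gene. Of 10 ERK output genes, 6 had higher and 4 had lower means in MEKi libraries, with a median difference of 0.19 and 0 called. Every difference given here is therefore one between labels, and a lower ERK output in the MEKi libraries cannot be assumed. Limma called 1 of all genes, 9530002B09Rik, lower under the MEKi label and none higher. This gene was at the floor of 5.12 (0 reads) in every MEKi library, against a mean of 6.85 (SD 0.34) in control libraries. Acinar markers were uneven, with list means of 5.89 to 11.63 in MEKi libraries, against 15.69 and 17.40 in control replicates 2 and 3 and 8.39 to 9.26 in the other control libraries. Libraries are called MEKi 1 to 4 and control 1 to 4 from here on.

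Neither Trp53 nor any of its 9 targets differed between the labels beyond the spread between mice. Limma called 0 of the 10 genes higher and 0 lower at an adjusted p of 0.05 over all 19129 genes, where the share of all genes called was 0% higher and 0.00523% lower. At an unadjusted p under 0.05 the count was 0 of 10, against 1.77% of all genes, and voom on recovered reads also called 0 of the 10 after adjustment. None of the 10 genes had all MEKi libraries above or all below the control libraries, against 0.565% and 0.701% of all genes. The 10 differences ran between -0.18 for Trp53 and 0.16 for Bbc3 with a median of 0.05, and the median over all genes was 0.01. Every 95% interval lay between -0.54 and 0.59, so a difference of 1 on this scale was outside all of them. This bound is looser in fold for Bbc3, Bax and Sesn2, the members with the fewest reads.

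**Figure D1:**
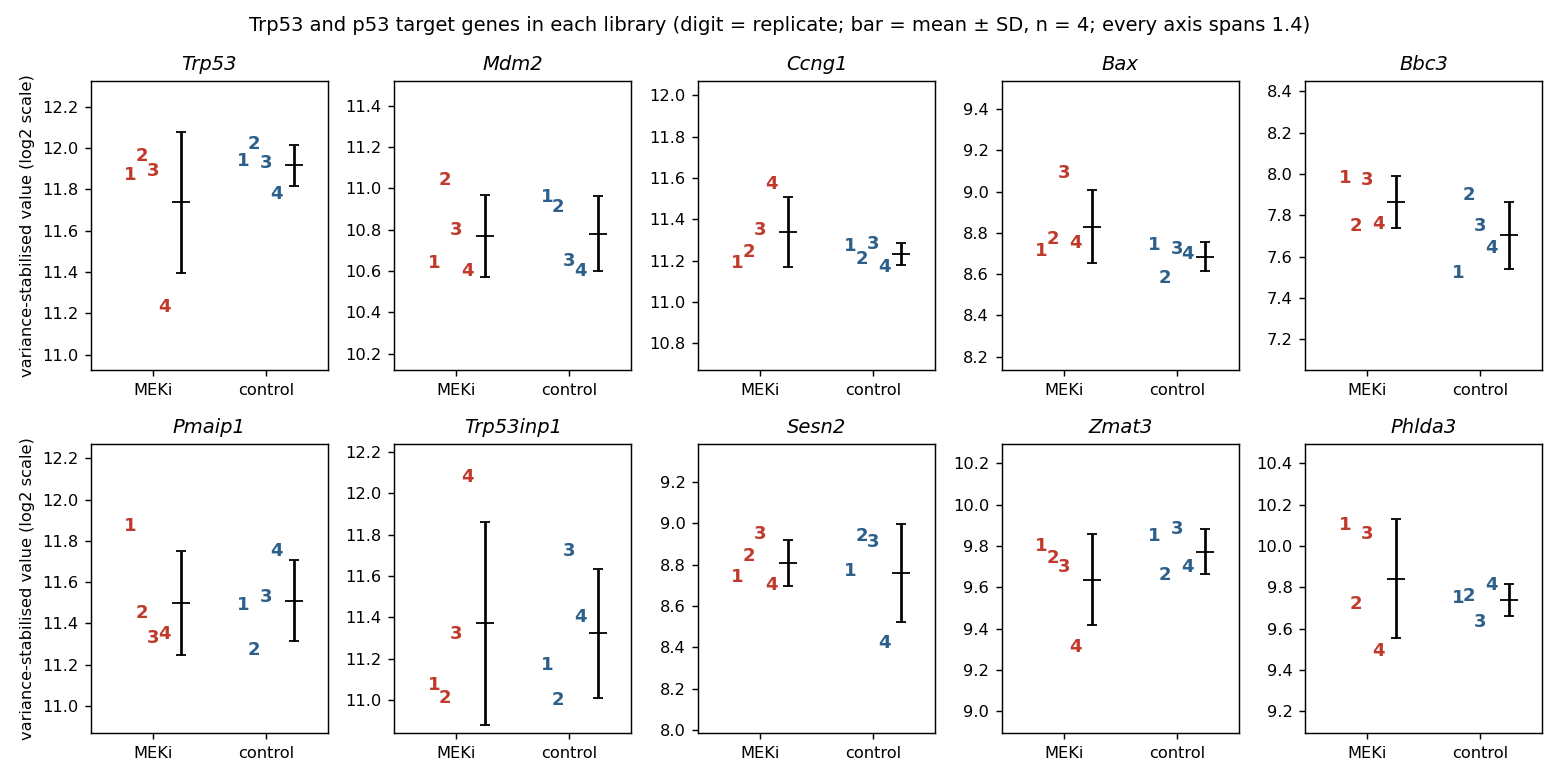
Variance-stabilised values (log2 scale, vertical axis) of the 10 genes in each library, MEKi in red left of control in blue. Digits are replicate numbers and the bar is mean ± SD (n = 4), and each axis spans the same height. The groups overlap in every panel, and MEKi 4 lies apart at 11.23 for Trp53.

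Trp53 itself was steady in 7 libraries and lower in MEKi 4. Its values were 11.87, 11.96, 11.89 and 11.23 in MEKi 1 to 4, against 11.94, 12.02, 11.93 and 11.78 in control 1 to 4. MEKi 4 was the lowest of all, 0.55 below the next library, while the other 3 MEKi libraries lay inside the control range. In reads divided by the authors' size factor, MEKi 4 held 2325.6, against a median of 3831.2 over the other 7 libraries, a ratio of 0.607. The label means were 11.74 ± 0.34 in MEKi and 11.92 ± 0.10 in control libraries (SD, n = 4 each), and the difference of -0.18 (SE 0.16, 95% interval -0.54 to 0.18) was not called (limma adjusted p = 1). Without MEKi 4 the difference was -0.01. Each of these values rests on 2793 or more Trp53 reads, and the low one in MEKi 4, the deepest library, on 3648. The pseudogene Trp53-ps on chromosome 17 is not a row of the table, and reads shared with it cannot be told apart here.

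The negative regulators did not follow one pattern. Mdm2, the ubiquitin ligase that degrades p53, had 10.64, 11.04, 10.80 and 10.60 in MEKi 1 to 4, against 10.96, 10.91, 10.65 and 10.60 in control 1 to 4. Both labels held libraries at the top and at the bottom of the Mdm2 range, and the difference was -0.01 (SE 0.13, 95% interval -0.30 to 0.28), and 0.02 with library medians aligned. Ccng1, which encodes cyclin G1, a protein that recruits the phosphatase PP2A to Mdm2, had 11.19, 11.24, 11.35 and 11.57 in MEKi 1 to 4, against 11.27, 11.21, 11.28 and 11.17 in control 1 to 4. MEKi 4 was the highest library for Ccng1, 0.22 above the next, at a ratio of 1.258 to the median of the other 7 in scaled reads. The Ccng1 difference was 0.10 (SE 0.10, 95% interval -0.12 to 0.33) and 0.03 without MEKi 4.

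No cell death gene separated the labels. Bax, the pore-forming protein of the mitochondrial outer membrane, had 8.71, 8.77, 9.09 and 8.75 in MEKi 1 to 4, against 8.74, 8.58, 8.72 and 8.70 in control 1 to 4. MEKi 3 alone stood above the rest for Bax, and the difference of 0.14 (SE 0.13, 95% interval -0.14 to 0.43) was 0.06 without it. Bax shares 192 exon bases with the gene model Gm45808 on the same strand, which is not a row of the table. Bbc3 encodes PUMA, a protein that frees Bax from its inhibitors. Bbc3 had 7.98, 7.75, 7.97 and 7.76 in MEKi 1 to 4, against 7.52, 7.90, 7.75 and 7.64 in control 1 to 4, on 109 to 239 reads per library. Its MEKi libraries lay in the upper part of the range but overlapped with control 2, and control 3 was level with MEKi 2 to 2 decimals. The difference was 0.16 (SE 0.14, 95% interval -0.16 to 0.48).

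Pmaip1 encodes NOXA, a partner of the survival protein MCL1. Its values were 11.87, 11.45, 11.33 and 11.35 in MEKi 1 to 4, against 11.49, 11.27, 11.53 and 11.75 in control 1 to 4. The highest library was under the MEKi label and the lowest under the control label, yet the difference was -0.01 (SE 0.15, 95% interval -0.34 to 0.32), and 0.02 with library medians aligned. Trp53inp1, a nuclear protein that promotes p53 phosphorylation and autophagy, varied most of the 10 genes. It had 11.07, 11.01, 11.32 and 12.08 in MEKi 1 to 4, against 11.17, 11.00, 11.72 and 11.40 in control 1 to 4. MEKi 4 was the highest library with a ratio of 1.908 to the median of the other 7 in scaled reads, and control 3 was the next. The Trp53inp1 difference of 0.05 (SE 0.24, 95% interval -0.49 to 0.59) turned to -0.19 without MEKi 4 and to -0.06 without control 2.

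The 3 remaining targets act on growth signalling and RNA. Sesn2, a leucine sensor that restrains the growth kinase complex mTORC1, had 8.74, 8.84, 8.95 and 8.70 in MEKi 1 to 4, against 8.77, 8.94, 8.91 and 8.42 in control 1 to 4. Control 4 alone was low for Sesn2, and the difference of 0.05 (SE 0.14, 95% interval -0.27 to 0.37) turned to -0.06 without it. Zmat3, a zinc finger protein that binds RNA and alters splicing, had 9.80, 9.74, 9.70 and 9.31 in MEKi 1 to 4, against 9.85, 9.66, 9.88 and 9.70 in control 1 to 4. MEKi 4 was again the lowest library, 0.34 below the next, and the Zmat3 difference of -0.13 (SE 0.13, 95% interval -0.42 to 0.16) was -0.02 without it. Phlda3, a pleckstrin homology protein that competes with AKT for membrane lipids, had 10.10, 9.72, 10.06 and 9.49 in MEKi 1 to 4, against 9.75, 9.76, 9.63 and 9.81 in control 1 to 4. The MEKi libraries held both the 2 highest and the lowest Phlda3 values, with a difference of 0.10 (SE 0.15, 95% interval -0.22 to 0.43). It was 0.22 without MEKi 4 and -0.01 with the acinar marker mean as a covariate.

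**Figure D2:**
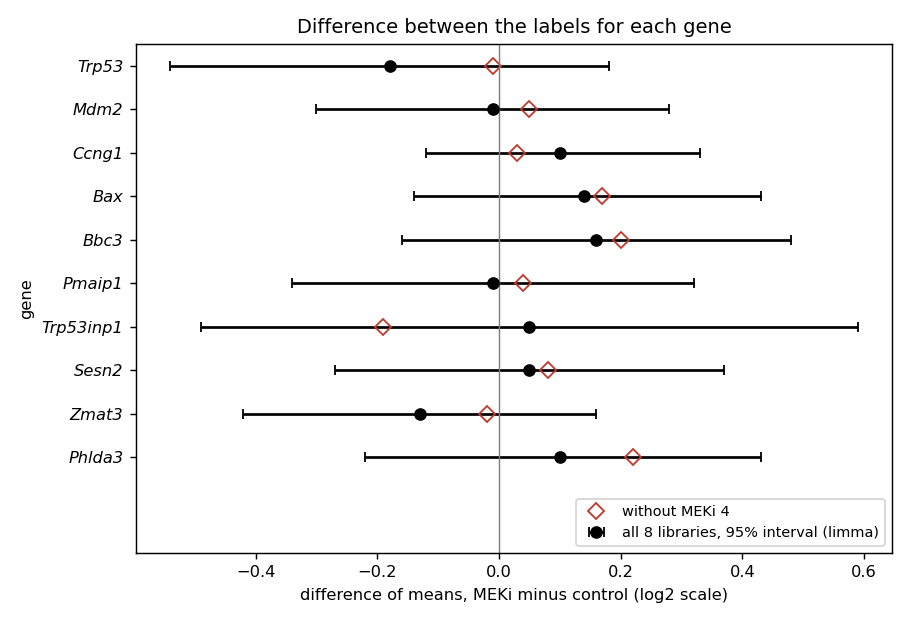
Difference of means, MEKi minus control (log2 scale, horizontal axis), for each gene with its 95% limma interval (black) and without MEKi 4 (red diamonds). All 10 intervals include 0. Leaving out MEKi 4 brings Trp53 to -0.01 and takes Trp53inp1 to -0.19.

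In MEKi 4 the genes of the set did not all move one way. MEKi 4 was often at the end of the range in both directions, as it was over all genes. MEKi 4 was the lowest library for 4 of the 10 genes (Trp53, Mdm2, Zmat3 and Phlda3) and the highest for 2 (Ccng1 and Trp53inp1), although for Mdm2 it was level with control 4 to 2 decimals. Over all genes without ties, MEKi 4 was the lowest library for 21.8% and the highest for 23.3%, more than any other library in either direction. Among 10943 genes with a mean value of at least 8, MEKi 4 lay 0.5 or more below the other 7 libraries for 407 genes (3.72%) and as far above them for 370 genes (3.38%). Trp53 was 1 of those 407 genes, and its low value in MEKi 4 was known when the genes were chosen.

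**Figure D3:**
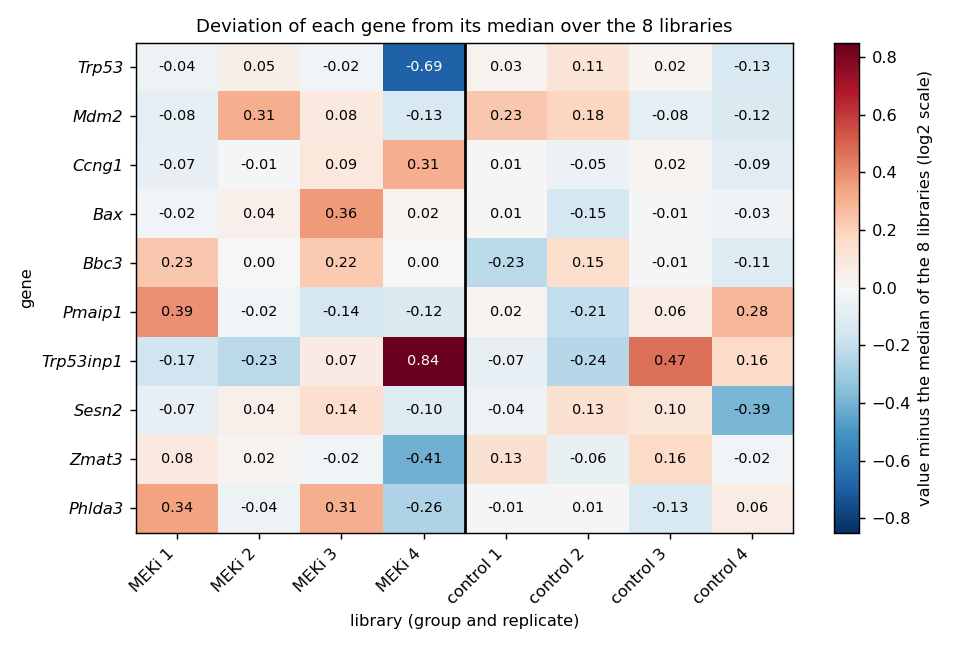
Value minus the median of the 8 libraries (log2 scale, colour and printed numbers) for each gene (rows) in each library (columns, MEKi left of control). MEKi 4 has -0.69 for Trp53 and -0.41 for Zmat3, against 0.84 for Trp53inp1 and 0.31 for Ccng1.

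On the variance-stabilised scale, the spread over the 8 libraries was small for most of the genes. The SD of Ccng1 was 0.1274, smaller than in most genes, since only 14.8% of all genes had a smaller one. Bax stood at 22.2% and Bbc3 at 28.3% on the same count. This scale understates the spread of genes with few reads, and the count was not matched for level. In size-factor-scaled reads per kilobase of exon, Bbc3 had 74.2 ± 11.1 and Trp53 had 893.5 ± 136.9 (SD over 8 libraries). The lower rank of Bbc3 is therefore no evidence that it varied less than Trp53. Trp53 had an SD of 0.254 (64.9%) and Trp53inp1 one of 0.381 (85.8%), and for both MEKi 4 was the library farthest from the median. By the root-mean-square difference of centred values over 8 libraries, the nearest pair among the 10 genes was Trp53 and Zmat3 at 0.1269. The farthest pair was Trp53 and Trp53inp1 at 0.5677.

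Among 10942 other genes with a mean of at least 8, the 5 profiles nearest to Trp53 by the same measure belonged to Dkc1, Atad3a, Ergic1, Clec4n and Hnrnpab. Their differences from the Trp53 profile ran from 0.0423 for Dkc1, the gene of the pseudouridine synthase dyskerin, to 0.0607 for Hnrnpab, an RNA-binding protein gene. Dkc1 had 11.04, 11.09, 10.96 and 10.36 in MEKi 1 to 4, against 11.11, 11.15, 11.03 and 11.00 in control 1 to 4. Dkc1 was likewise steady in 7 libraries and low in MEKi 4, which follows from choosing it by nearness to the Trp53 profile. The nearest profiles of the targets were Utp15 for Mdm2, Mau2 for Ccng1, Dph3 for Bax, Paqr4 for Bbc3, Gsdmd for Pmaip1, Mtcp1 for Trp53inp1, Uso1 for Sesn2, Hmg20b for Zmat3 and Asf1b for Phlda3. No target had another of the 10 genes as its nearest profile, which says little about the set. Each was the nearest of 10942 candidates, or 10943 for Bbc3, which has a mean under 8 and was itself no candidate.

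Levels between genes were compared as size-factor-scaled reads per kilobase of exon. Pmaip1 was highest with a mean of 1048.1 over the 8 libraries, followed by Trp53 at 893.5, Ccng1 at 693.5, Phlda3 at 528.5 and Trp53inp1 at 404.9. Mdm2 followed at 333.7, Bax at 233.7, Sesn2 at 108.2, Bbc3 at 74.2 and Zmat3 at 67.4. Of the 9 pairs of neighbours in this order, only Bax and Sesn2 had ranges over the 8 libraries that did not overlap. Mdm2 lay above Bax, Bax above Sesn2 and Sesn2 above Bbc3 in all 8 libraries, whereas Pmaip1 lay above Trp53 in 6. Within the BH3-only pair, Pmaip1 was thus the abundant transcript and Bbc3 the scarce one. The exon length counts every annotated exon, 11435 bases for Zmat3, so genes with long rarely used exons are placed too low.

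All 10 genes are protein-coding and lie on GRCm38 as annotated by GENCODE. Trp53 occupies chromosome 11, 69580359 to 69591873, on the plus strand, and Ccng1 lies on the same chromosome at 40748552 to 40755311. Mdm2 lies on chromosome 10 at 117688875 to 117710758. Bax lies on chromosome 7 at 45461697 to 45466898 and Bbc3 on the same chromosome at 16308393 to 16318205. Trp53inp1 and Sesn2 lie on chromosome 4, Zmat3 on chromosome 3, Phlda3 on chromosome 1 and Pmaip1 on chromosome 18. Apart from Bax, none shares exon bases with another annotated gene.

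The genes that act on p53 did not separate the labels either. Of 22 listed regulators 21 were measured, 18 with higher and 3 with lower means under the MEKi label. Over all genes, 9861 of 19129 had higher means. The median difference of the regulators was 0.08, and 0 were called in either direction. Their library means overlapped, at 10.22 to 10.45 in MEKi and 10.24 to 10.36 in control libraries. Cdkn2a encodes p19Arf, which blocks Mdm2, and the CDK4 inhibitor p16Ink4a. Cdkn2a had 12.61, 12.83, 12.45 and 10.65 in MEKi 1 to 4, against 12.63, 12.65, 12.40 and 12.72 in control 1 to 4. MEKi 4 was thus also the low library for Cdkn2a, by a wider margin than for Trp53, and the label difference was -0.46 (SE 0.41, 95% interval -1.37 to 0.45).

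Mdm4, the Mdm2 relative that masks the p53 activation domain, had 12.21, 12.35, 12.73 and 12.77 in MEKi 1 to 4, against 12.41, 12.14, 12.37 and 12.44 in control 1 to 4. Its difference was 0.18 (SE 0.14), and the 2 highest libraries were MEKi 3 and MEKi 4. Wrap53, the neighbour transcribed from the opposite strand next to Trp53, had 8.79 ± 0.19 in MEKi and 8.71 ± 0.11 in control libraries (SD, n = 4 each). Its exons do not overlap those of Trp53 in the annotation. The regulators with the smallest p were Ppp1r13b, which encodes the p53-binding protein ASPP1, and Cop1, a ubiquitin ligase gene. Their differences were 0.24 (SE 0.16) and 0.11 (SE 0.08). Ppp1r13b was highest in MEKi 4, at 10.75, against 10.03 to 10.29 in the other MEKi libraries and 9.94 to 10.19 in control libraries.

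**Figure D4:**
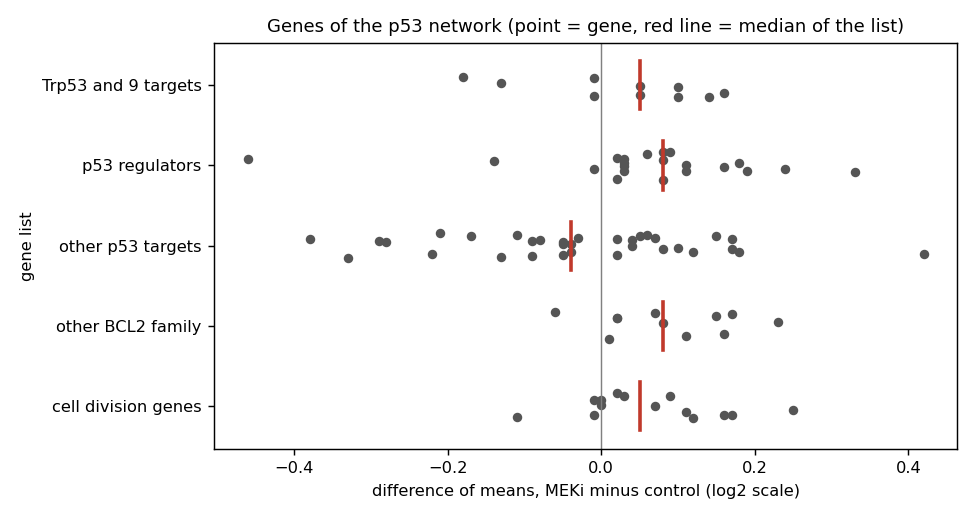
Difference of means, MEKi minus control (log2 scale, horizontal axis), for the genes of 5 lists (rows); each point is a gene and the red line is the list's median. The medians lie between -0.04 and 0.08, and no gene was called.

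The wider set of p53 targets had no common direction. All 33 genes were measured, and the mean was higher in MEKi libraries for 15 and lower for 18, with a median of -0.04 and 0 called. Cdkn1a, the gene of the CDK inhibitor p21, had 10.18, 10.51, 9.81 and 9.79 in MEKi 1 to 4, against 10.33, 10.76, 10.51 and 9.83 in control 1 to 4. Its low libraries were MEKi 3, MEKi 4 and control 4, and the difference was -0.28 (SE 0.22, 95% interval -0.78 to 0.21). The smallest p-values were those of Gls2, a mitochondrial glutaminase gene, at -0.33 (SE 0.19, limma adjusted p = 1), and of Plk2, a polo-like kinase gene, at -0.29 (SE 0.17, limma adjusted p = 1).

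The other BCL2 family genes did not separate the labels. Of 12 listed genes 11 were measured, 10 with higher and 1 with lower means, a median of 0.08, and 0 were called. Over all genes, 9861 of 19129 had higher means, and genes of a list are not independent of each other. The mean of the 11 genes was 10.69 in MEKi 4 and 10.43 to 10.54 in the other MEKi libraries. Control 4 had 10.62 and the other control libraries had 10.31 to 10.48. The survival gene Bcl2 had 10.70 ± 0.13 in MEKi and 10.54 ± 0.15 in control libraries, a difference of 0.17 (SE 0.11). Bid, which links death receptors to Bax, had 10.43 ± 0.14 in MEKi and 10.27 ± 0.23 in control libraries (SD, n = 4 each), a difference of 0.16 (SE 0.13). Of 14 cell division genes, which p53 represses indirectly through p21, 11 had higher and 3 lower means with a median of 0.05, and 0 were called. Library means of this list overlapped, at 10.14 to 10.71 in MEKi and 10.06 to 10.82 in control libraries. Mki67, the gene of the proliferation antigen Ki-67, differed by 0.25 (SE 0.17) and Top2a, a topoisomerase gene, by 0.12 (SE 0.13).

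Epithelial and neutrophil marker lists were low in MEKi 4 together with Trp53, and their part in the low Trp53 value was not tested. The mean of 10 epithelial markers, Epcam and keratins among them, was 13.11, 13.18, 12.92 and 12.21 in MEKi 1 to 4, against 12.93 to 13.07 in the control libraries, and 7 of the 10 were lowest and 2 were highest in MEKi 4. Neutrophil markers averaged 7.99 in MEKi 4 and 9.22 to 9.77 in the other MEKi libraries, against 9.49 to 9.82 in control libraries. Of these 8 markers, 7 were lowest in MEKi 4. For comparison, MEKi 4 was the lowest library for 21.8% and the highest for 23.3% of all genes without ties. Fibroblast markers (12.09 in MEKi 4), T and NK cell markers (8.15) and endothelial markers (9.02) lay inside the range of the other libraries. Acinar markers averaged 11.63 in MEKi 4 and 5.89 to 9.17 in the other MEKi libraries, against 8.39 to 17.40 in control libraries. Macrophage markers were lowest in MEKi 4 by a small margin, at 10.51 against 10.53 in MEKi 2, and so were B cell markers, at 6.24 in MEKi 4 against 6.34 in control 1. No marker of these lists was at 0 reads in MEKi 4. In bulk tissue fewer cells of a type and less RNA per cell cannot be told apart. With the epithelial marker mean as a covariate the Trp53 difference was -0.05, and with the acinar marker mean it was -0.23. MEKi 4 alone was far from the rest in the epithelial mean. That covariate therefore cannot be told apart from leaving out MEKi 4, which gave -0.01.

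**Figure D5:**
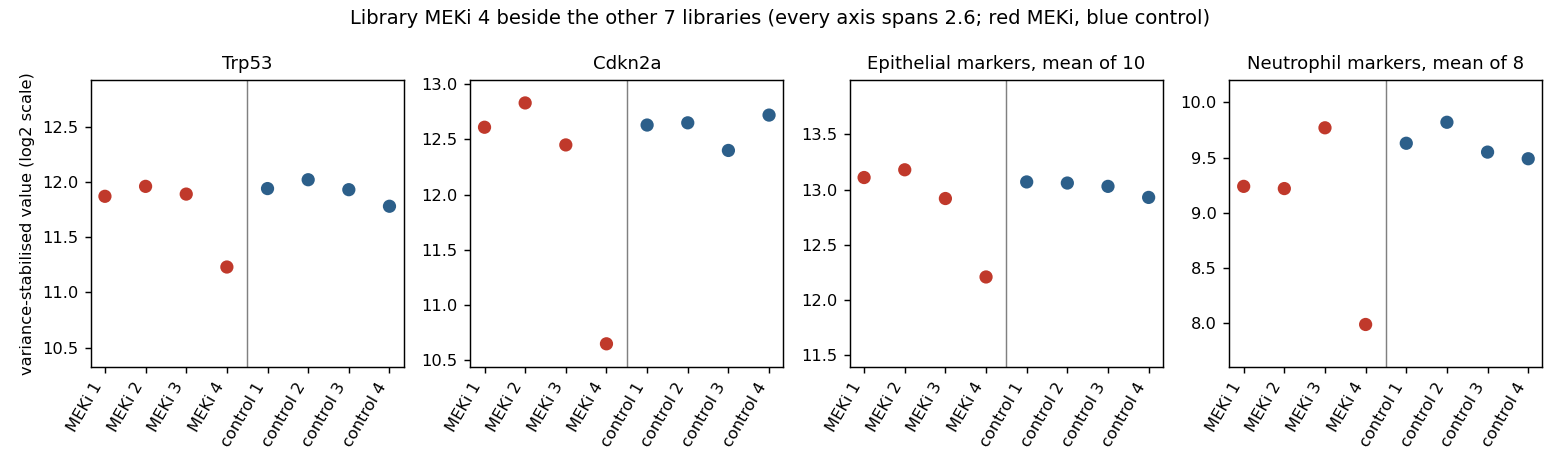
Variance-stabilised values (log2 scale, vertical axis) of Trp53, Cdkn2a and the means of 10 epithelial and 8 neutrophil markers in each library, MEKi in red left of control in blue, with axes of equal height. MEKi 4 is the lowest library in all 4 panels, at 11.23, 10.65, 12.21 and 7.99.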

How the data were processed

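The submitters' processing notes name the build GRCm38, the aligner STAR 2.5.3a and DESeq2 1.18.1, and no source used here names a counter or an annotation. Strand-specific total RNA libraries were made from RNA with an integrity number above 7.5, per the labels' protocols. The deposited values are variance-stabilised log2 values with a floor of 5.12 in every library, which stands for 0 reads. Inverting the transformation gave whole reads (within 0.01) for 100% of the values checked, 19049 to 19248 per library. Values of 0 reads and the highest values were not among those checked. Depth was read from the recovered reads. Of 19431 rows, 32 name no gene (0.101% to 0.167% of reads) and were left out, and 86 symbols occur more than once and are represented by their most abundant row.

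Limma 3.58.1 in R 4.3.3 (lmFit, eBayes with a trend, two-sided) was fitted to all 19129 genes without covariates, with Benjamini-Hochberg adjustment and a threshold of 0.05. It was tested on simulated data. The fit was repeated on recovered reads (voom), with the replicate block, with the acinar or the epithelial marker mean as a covariate, after quantile scaling or alignment of medians, without the trend, with robust moderation, on 75% of genes by mean, on every row, and without each library. Named genes were the 10 genes, Mdm4, Cdkn2a, Wrap53, Cdkn1a, Dusp6, the 2 smallest p-values of each p53 list (0 genes were past the threshold) and nearest profiles. The genes and lists were chosen with earlier results of these data known. Figures were drawn with matplotlib 3.10.9.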

Additional observations from a re-analysis of the deposited data

Results flagged for a closer look

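Trp53 in MEKi 4, at 11.23, lay apart from the other MEKi libraries at 11.87 to 11.96, with a gap of 0.88 of the group's whole range. The low value of Trp53 in this library was known when the genes were chosen, so the gap is a description and no test. Chance alone puts about 1 in 20 groups of 4 past the limit used (Dixon's critical value). Bax in MEKi 3, at 9.09, lay apart from 8.71 to 8.77 in the other MEKi libraries. Top2a in MEKi 1, at 13.26, lay apart from 13.15 to 13.16 but inside the control range of 12.71 to 13.31. These were 3 of 46 sets of 4 libraries examined, and over all genes 6.23% of MEKi sets and 4.52% of control sets showed such a gap.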

How the results depend on the processing

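The Trp53 difference kept its sign in all 18 alternatives, from -0.26 without MEKi 2 to -0.01 without MEKi 4, and was never called. No gene of the 10 was called in any alternative, with a smallest limma adjusted p of 0.984, and their median stayed between 0.03 and 0.09. Signs turned for 5 of the 10 genes. Mdm2 was 0.02 with library medians aligned and 0.05 with the epithelial covariate, and ran from -0.10 to 0.05 with single libraries left out. Pmaip1 was 0.02 and 0.03 in the same alternatives and ran from -0.13 to 0.07. Trp53inp1 was -0.14 with the epithelial covariate and ran from -0.19 to 0.18, Sesn2 ran from -0.06 to 0.11, and Phlda3 was -0.01 with the acinar covariate. The cause was not tested. The 1 gene called lower became 0 with the 75% of genes with the highest mean, either covariate or the replicate block, and ran from 0 to 2 with single libraries left out (0 without control 1 or any MEKi library, 2 without control 4). The labels do not say whether replicate numbers stand for a shared litter or batch. Deviations of same-numbered libraries correlated at -0.333, 0.196, -0.465 and 0.024, and those of different-numbered libraries at -0.349 to 0.379. With the replicate block the Trp53 difference was -0.18 and 0 genes were called. Aligning medians moved the median of all genes by 0.028.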
